A study of Mus musculus with 8 samples.

Results

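The heat-shock proteins and their DnaJ partners are the general folding machinery of the cell. Here they were taken as the protein-coding genes of the count table whose names mark them as Hsp70, Hsp110, Hsp90, Hsp60, Hsp10, small heat-shock or DnaJ class A, B and C genes. Hspa5, Hspa8, Dnajb9, Dnajb11 and Dnajc3 were left out of the set by rule. It held 64 genes of the 54532 in the table: 12 of the Hsp70 and Hsp110 class, 2 of Hsp90, 2 of mitochondrial Hsp60 and Hsp10, 8 small heat-shock genes, and 4, 11 and 25 DnaJ genes of classes A, B and C. The rule used gene names and gene type only, but it was set with earlier results of these data known.

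Hsp70 proteins bind exposed hydrophobic stretches of unfolded chains and release them when bound ADP is replaced by ATP. DnaJ proteins deliver substrates and stimulate the Hsp70 ATPase, while Hsp110 proteins act as nucleotide exchange factors. Hsp90 completes the folding of kinases and steroid receptors, Hsp60 and Hsp10 form the folding chamber of mitochondria, and small heat-shock proteins hold unfolded chains without ATP. Some of these genes are expressed at a steady level, and others are induced when the transcription factor HSF1 binds heat-shock elements, repeats of GAA and TTC units, in their promoters. Tumour cells are known to depend on raised chaperone levels.

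The samples were whole orthotopic pancreatic tumours of C57BL/6 mice implanted with cells of the KPC line, a pancreatic ductal adenocarcinoma model whose alleles and clone the labels do not state. The TLQP21 group had 4 libraries from mice given TLQP21, a short peptide derived from the secreted neuronal protein VGF, over 2 weeks, and the Saline group had 4 libraries from mice given saline for the same time. Every mouse of both groups carried the implanted cells, and the labels give neither the age of the animals nor the dose. The comparison asks which transcripts differ in tumours under the peptide.

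Summed counts per library were 29.03 to 33.54 M in TLQP21 and 28.36 to 28.96 M in Saline, so every TLQP21 library was the deeper, and depth and treatment cannot be told apart. Levels are in CPM, counts scaled to a common library total and corrected for composition between libraries. The 8 fixed markers of tumour epithelium were all expressed, with a summed level of 7113 to 7469 CPM in TLQP21 and 6658 to 7144 in Saline. Skeletal muscle and male germ cell markers were near 0 (summed levels of at most 2.80 and 1.30 CPM in any library), while other tissues were mixed in. The 12 acinar markers summed to 9927 to 28400 CPM in TLQP21 and 10867 to 51548 in Saline, the highest in Saline 4. The 8 hepatocyte markers summed to 4588 CPM in Saline 2 and at most 9.91 in the other 7 libraries. In each group libraries 1 and 2 had Xist reads and libraries 3 and 4 Y-linked reads, a split the labels do not mention.

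The chaperone genes took 0.705 to 0.901% of all counts in the TLQP21 libraries and 0.710 to 0.872% in the Saline libraries. Of the 64 genes, 62 passed the filter on low counts and were tested with edgeR's quasi-likelihood test among 18238 genes. Dnajb8, a testis DnaJ protein, had no read in any library, which over 240.2 M counts allows a level of up to 0.0125 CPM (3 counts, counting error only). Hspb3, a small heat-shock protein of muscle, had 25 reads in all. Per kilobase of gene length, the most abundant member was Hsp90ab1, the constitutive cytosolic Hsp90, with mean levels of 799.7 CPM per kb in TLQP21 and 802 in Saline, and it supplied 30.8% of all member reads. Dnajc10, an endoplasmic reticulum DnaJ protein that reduces disulfide bonds, followed with 228 CPM per kb in TLQP21 and 202 in Saline. Hspd1, the mitochondrial Hsp60, stood at 160.4 and 159 CPM per kb in TLQP21 and Saline, Hsp90aa1 at 146 and 156, and Hspe1, the mitochondrial Hsp10, at 101 and 93.9. At the other end Dnajb3, Hspb9, Hspb2, Dnajc6 and Hspa1l averaged under 1 CPM over the 8 libraries.

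**Figure D1:**
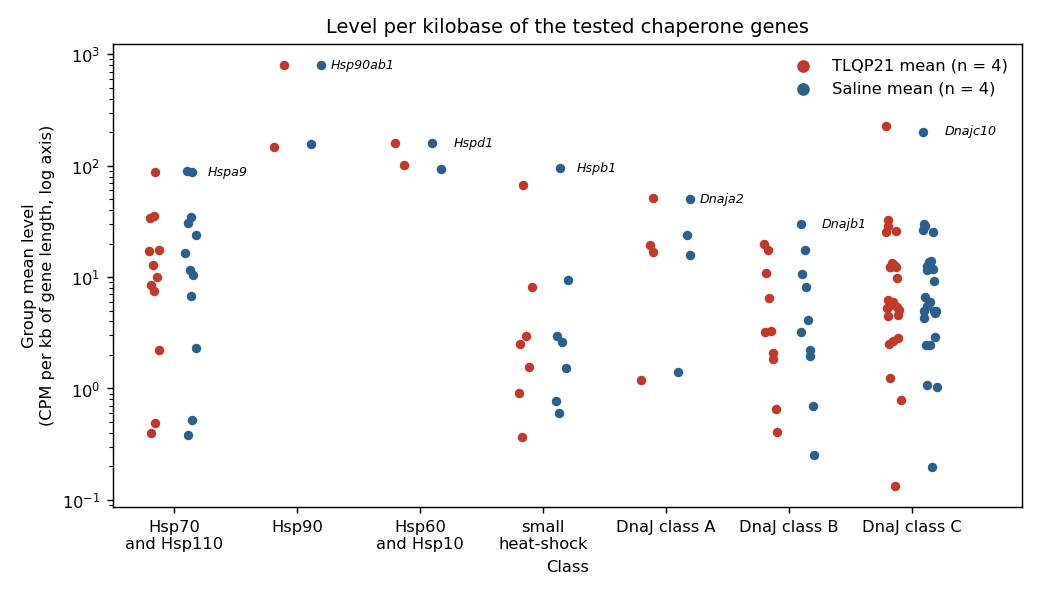
Mean level of each tested chaperone gene in CPM per kilobase of gene length (log axis) by class, with 1 point per gene and group (TLQP21 red and left, Saline blue and right, n = 4 each) and no error bars. Hsp90ab1 is highest at 799.7 CPM per kb in TLQP21 and 802 in Saline, and Dnajc10 leads the class C genes.

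No chaperone gene passed the test between TLQP21 and Saline tumours. At an adjusted p under 0.05 (edgeR, Benjamini-Hochberg over all genes), 0 of 62 members were called, as were 0.0% of all genes tested. The smallest member p was 0.0505 unadjusted and 0.9999 adjusted. At an unadjusted p under 0.05, 0 members were higher and 0 lower, where 0.795% of all genes were higher and 2.26% lower. The ranges of the groups overlapped for every one of the 62 members, while 0.811% of all genes lay wholly higher and 0.844% wholly lower in TLQP21. DESeq2 gave an adjusted p for 61 members and called 0, with 2 at an unadjusted p under 0.05, where 3.26% of all genes passed. It gave no p for Hspa1a, whose Cook's distance, a measure of how far 1 library sways the fit, reached 14.5 in Saline 4. By limma's voom with quality weights 0 of 62 members were called, with 6 at an unadjusted p under 0.05, where 10.6% of all genes passed.

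The members as a whole lay around zero. The log2 fold change, TLQP21 minus Saline, was below 0 for 32 of 62 members (51.6%), against 49.4% of all genes, and the median was -0.00 for the members and 0.00 for all genes. For 54 of 62 members (87.1%) the 95% interval spanned less than a 2-fold change either way, a share of 79.6% over all genes. By class, the median log2 fold change was -0.03 for Hsp70 and Hsp110, -0.05 for Hsp90, 0.05 for Hsp60 and Hsp10, and -0.21 for the small heat-shock genes. It was -0.10, -0.07 and 0.03 for DnaJ classes A, B and C. As whole tumours were sequenced, fewer cells of a type and less RNA per cell cannot be told apart in any of these values.

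**Figure D2:**
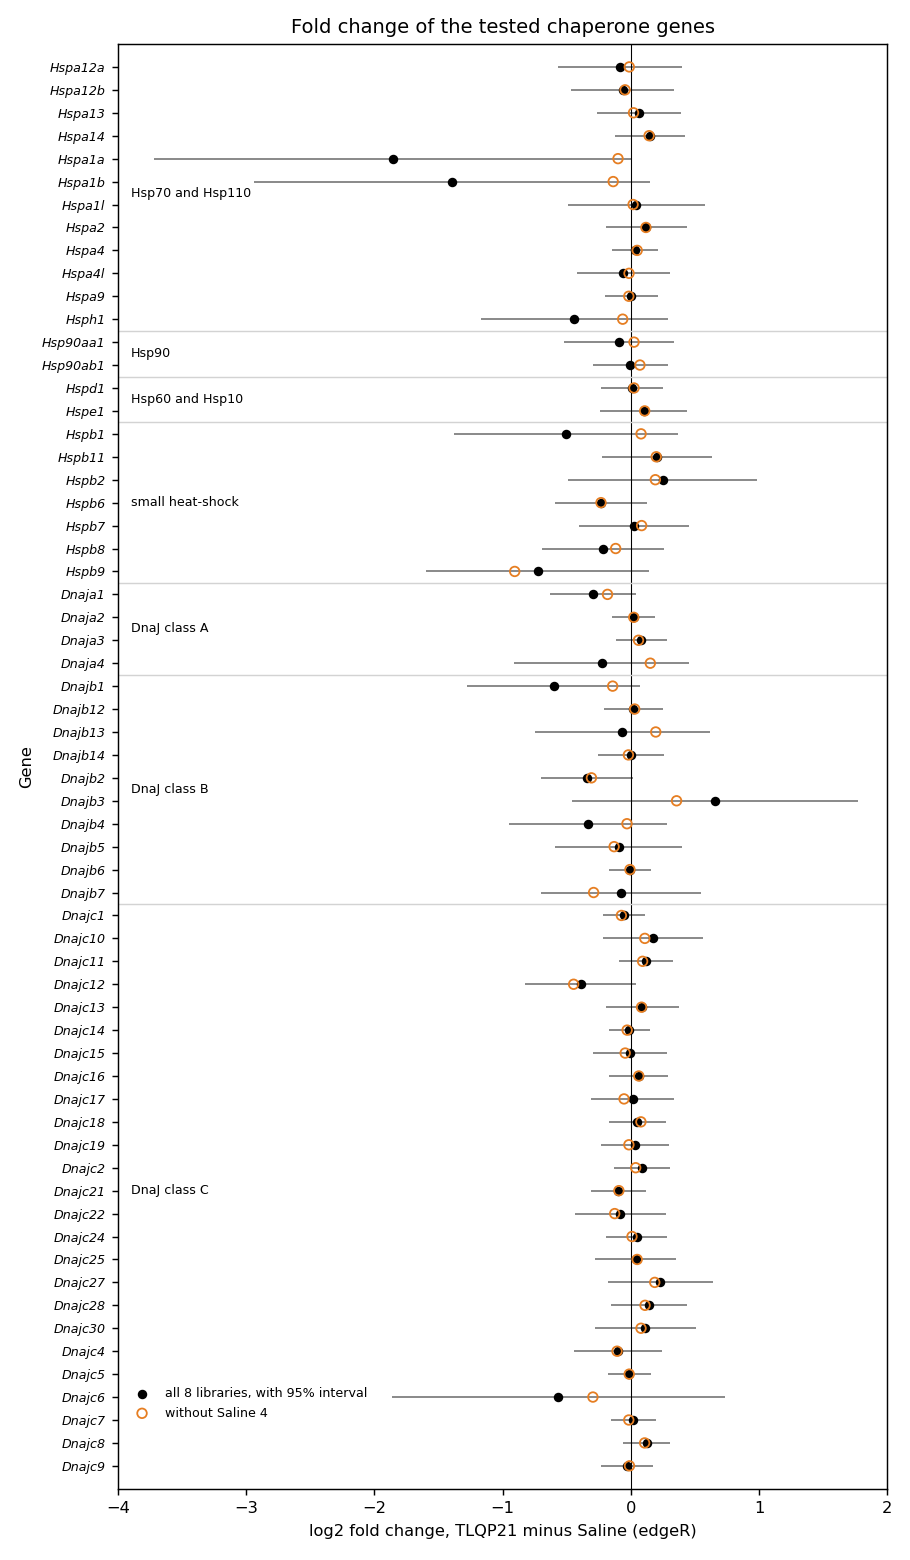
Log2 fold change of each tested chaperone gene, TLQP21 minus Saline, from edgeR (x axis) by gene and class (y axis), with black points and 95% intervals from all 8 libraries and orange rings without Saline 4. Hspa1a and Hspa1b lie farthest left at -1.86 and -1.39, and move to -0.10 and -0.14 without Saline 4.

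The 10 classical heat-inducible members were Hspa1a, Hspa1b, Hsph1, Hsp90aa1, Hspd1, Hspe1, Hspb1, Dnaja1, Dnajb1 and Dnajb4. Of the 10, 8 had log2 fold changes below 0, with a median of -0.39, and all 10 gave adjusted p = 0.9999 in the edgeR test. Without Saline 4, 6 of the 10 lay below 0 and the median was -0.05. 

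Hspa1a and Hspa1b encode the stress-inducible cytosolic Hsp70. On GRCm38 Hspa1a (ENSMUSG00000091971) lies on the minus strand of chromosome 17 from 34969190 to 34972156, and Hspa1b (ENSMUSG00000090877) on the same strand from 34956436 to 34959238. Their promoters are shown because they are close copies, as the genes are. In the 250 bases before the transcription start, chr17:34972157-34972406 for Hspa1a and chr17:34959239-34959488 for Hspa1b (RefSeq, GRCm38.p6, minus strand), they differ at 3 of 250 positions. Capitals mark the 1 match to 2 adjoining heat-shock units, GAANNTTC or TTCNNGAA.
Hspa1a: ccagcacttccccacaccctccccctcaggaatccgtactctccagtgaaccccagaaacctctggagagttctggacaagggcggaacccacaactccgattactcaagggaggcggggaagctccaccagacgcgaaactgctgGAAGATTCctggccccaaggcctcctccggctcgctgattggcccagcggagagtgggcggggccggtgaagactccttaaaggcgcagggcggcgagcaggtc
Hspa1b: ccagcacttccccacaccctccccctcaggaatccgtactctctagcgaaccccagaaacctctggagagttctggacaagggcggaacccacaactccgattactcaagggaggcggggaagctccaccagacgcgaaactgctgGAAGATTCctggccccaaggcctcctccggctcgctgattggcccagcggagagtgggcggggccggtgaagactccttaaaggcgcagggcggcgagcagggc

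The transcripts are alike as well. Of the 150-base windows of the annotated transcripts, 39.7% of those of Hspa1a and 40.5% of those of Hspa1b recur letter for letter in the other gene of the pair or in Hspa1l. Reads of this length may therefore be assigned to either gene or to none, and the split between them is uncertain. Hspa1a also shares 19.0% of its exon bases with Gm20481 on the opposite strand, and the strand setting of the counting is not given in the sources used here.

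Hspa1a had 20.4, 14.7, 21.7 and 44.3 CPM in TLQP21 libraries 1 to 4, against 37.0, 27.1, 16.9 and 285 CPM in Saline libraries 1 to 4. Hspa1b had 84.2, 62.1, 70.7 and 165 CPM in TLQP21, against 149.8, 106, 58.6 and 689 CPM in Saline. In both genes Saline 4 stood far above all other libraries, TLQP21 4 was second, and the other 6 libraries of the groups overlapped. Means were 25.3 ± 13.0 CPM in TLQP21 and 91.6 ± 129 in Saline for Hspa1a (SD, n = 4 each), and 95.6 ± 47.4 and 251 ± 295 in TLQP21 and Saline for Hspa1b. The log2 fold changes were -1.86 (SE 0.83, 95% interval -3.72 to 0.01) and -1.39 (SE 0.69, -2.94 to 0.15). Without Saline 4 they were -0.10 and -0.14.

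Summing both genes removes the uncertain split between them. The sum was 105, 76.8, 92.5 and 209.6 CPM in TLQP21 and 187, 133, 75.5 and 975 CPM in Saline, so that Saline 4 held 4.65 times the next highest library. The mean was 121 ± 60.2 CPM in TLQP21 and 342.5 ± 424 in Saline (SD, n = 4 each). Leaving out Saline 4, the Saline mean was 132 ± 55.7 CPM (n = 3). The ratio of Hspa1b to Hspa1a was 3.26 to 4.21 in TLQP21, 3.47 to 4.04 in Saline 1 to 3 and 2.42 in Saline 4.

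Hsph1, the inducible Hsp110, and Dnajb1, the inducible cytosolic DnaJ partner of Hsp70, followed the same order among the Saline libraries. Hsph1 had 136, 103, 99.1 and 169 CPM in TLQP21, against 180.4, 126, 90.4 and 292 CPM in Saline. Dnajb1 had 67.4, 59.0, 60.1 and 66.0 CPM in TLQP21, against 83.8, 64.4, 60.2 and 175 CPM in Saline. In each of these 4 genes Saline 4 was highest, then Saline 1, Saline 2 and Saline 3. The log2 fold change was -0.44 (SE 0.33) for Hsph1 and -0.60 (SE 0.30) for Dnajb1, and -0.06 and -0.14 without Saline 4.

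Hspb1, the small heat-shock protein also called Hsp25 in mice, had 89.5, 73.4, 62.9 and 49.0 CPM in TLQP21, against 71.9, 75.1, 47.4 and 196 CPM in Saline. Its log2 fold change was -0.51 (SE 0.39) with all libraries, and its direction turned without Saline 4 (0.08). In TLQP21 it did not follow Hspa1a, since TLQP21 4 had its lowest level of that group. Hspb1 shares 39.1% of its 150-base windows with the pseudogene Hsp25-ps1. Its count is therefore uncertain, to an extent that was not measured.

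Dnaja1 and Dnajb4, inducible cytosolic DnaJ proteins, were also highest in Saline 4. Dnaja1 had 196, 166, 169 and 144 CPM in TLQP21, against 222, 188, 163 and 255 CPM in Saline (log2 fold change -0.29, SE 0.15). Dnajb4 had 23.9, 22.9, 28.8 and 39.8 CPM in TLQP21, against 30.1, 23.4, 34.7 and 57.8 CPM in Saline (-0.34, SE 0.28). Without Saline 4 the values were -0.18 and -0.03, and in both genes the groups overlapped.

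The other 3 inducible members peaked in TLQP21 4. Hsp90aa1, the inducible Hsp90, had 507, 497, 506 and 788 CPM in TLQP21, against 670.4, 539, 479.6 and 760.0 CPM in Saline. Library 4 was thus the highest of both groups, and the log2 fold change was -0.09 (SE 0.19), or 0.02 without Saline 4. The chaperonin pair differed little, with Hspd1 at 404, 429, 381 and 482 CPM in TLQP21 and 467, 373, 406 and 439 CPM in Saline (0.01, SE 0.11). Hspe1 had 149.8, 141, 121 and 181 CPM in TLQP21, against 156, 150.2, 106 and 142 CPM in Saline (0.10, SE 0.15). Hsp90aa1 and Hspd1 share 28.4% and 16.1% of their 150-base windows with other genes.

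**Figure D3:**
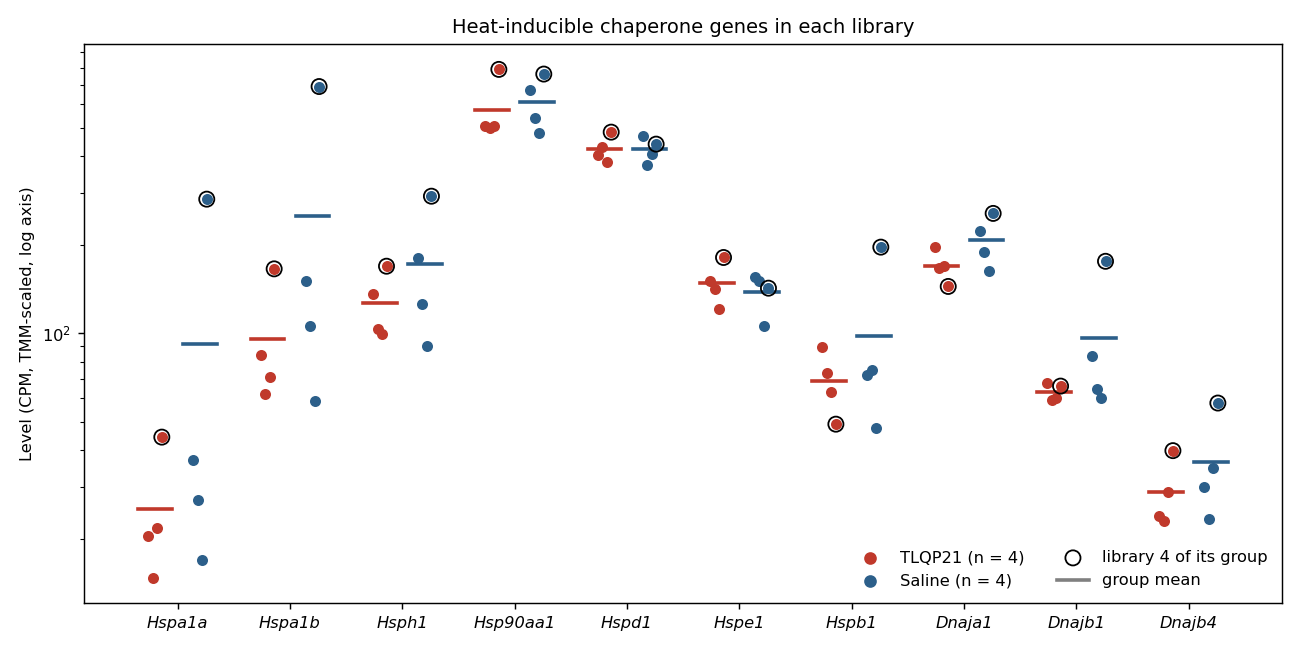
Level of the 10 heat-inducible members in every library (CPM on a log axis, TLQP21 red and left of Saline in blue, n = 4 each), with bars at group means and black rings round library 4 of each group. Saline 4 is the highest point of Hspa1a (285 CPM) and Hspa1b (689 CPM) and of 7 of the 10 genes in all, and TLQP21 4 is the highest of the other 3.

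The inducible genes also shared a promoter feature. RefSeq promoters of 300 bases (250 before and 50 after the start, GRCm38.p6) were found for 52 of the 64 members and 9 of the 10 inducible ones. A match to GAANNTTC or TTCNNGAA, each its own reverse complement, stood in 8 of these 9 (88.9%), in 7 of the 43 other members (16.3%) and in 17.0% of all genes with a promoter. With 3 adjoining units, GAANNTTCNNGAA or TTCNNGAANNTTC, which hold the shorter motifs, there were 3 of 9 inducible members (Hspd1, Hspe1 and, after its start, Hsph1), 1 of 43 others and 0.66% of all genes. HSF1 is known to act through such elements, and the inducible list was drawn from that knowledge, so the difference is a description. The 30 bases around the longest or nearest match before a RefSeq start are printed for the 8 genes. They run 5′ to 3′ on the strand of the gene, with the matched units in capitals.
Hspa1a: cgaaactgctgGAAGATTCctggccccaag
Hspa1b: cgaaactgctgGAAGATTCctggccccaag
Hsph1: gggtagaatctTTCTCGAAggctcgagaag
Hspb1: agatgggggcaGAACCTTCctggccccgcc
Dnaja1: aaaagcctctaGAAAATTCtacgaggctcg
Dnajb4: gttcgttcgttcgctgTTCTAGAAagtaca
Hspd1: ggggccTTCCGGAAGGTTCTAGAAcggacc
Hspe1: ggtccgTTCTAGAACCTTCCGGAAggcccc

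The windows lie at chr17:34972242-34972271 for Hspa1a, chr17:34959324-34959353 for Hspa1b and chr5:149636351-149636380 for Hsph1, all on the minus strand. Those of Hspb1 (chr5:135887811-135887840) and Dnaja1 (chr4:40722333-40722362) are on the plus strand, and that of Dnajb4 (chr3:152193846-152193875) on the minus strand. The gene limits of the count table differ from the RefSeq starts. By those limits the windows of Dnaja1, Dnajb4 and Hspd1 lie inside the gene, and that of Hsph1 does in part. Hspd1 and Hspe1 are transcribed away from each other on chromosome 1, and their window is the same 30 bases, chr1:55088053-55088082, read on the minus strand for Hspd1 and on the plus strand for Hspe1. Its capitals span 18 bases, the longest run among the 8 genes. Saline 4 did not stand out in this pair, where Hspd1 and Hspe1 had 439 and 142 CPM with Saline 1 to 3 at 373 to 467 and 106 to 156 CPM. Dnajb1, which was among the genes highest in Saline 4, had no match in its 300-base windows. Only exact matches inside these windows were sought, so a gene without a match may still have an element. The part of such elements in the levels was not tested.

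Library 4 of each group held the highest level of many members and of many genes at large. The share was 17.7% of members and 16.5% of all genes for Saline 4, and 32.3% and 26.8% for TLQP21 4. TLQP21 4 was also lowest for 19.4% of members and 27.2% of all genes. Saline 4 was highest for 7 of the 10 inducible members and 4 of the 52 others, and for 16.5% of all genes tested. TLQP21 4 was highest for 3 of the 10 inducible members and 17 of the 52 others, against 26.8% of all genes. The ratio of Saline 4 to the mean of Saline 1 to 3 had a median of 2.09 over the inducible members and 0.978 over the other 52. It exceeded 1.5 in 6 of the 10 and in 3 of the 52, which were Dnaja4, Dnajb13 and Dnajc6. Saline 4 was also the library with the highest sums of acinar, neutrophil and immediate-early markers. The 8 neutrophil markers summed to 190 to 368 CPM in TLQP21, 268 to 383 in Saline 1 to 3 and 907 in Saline 4. The 10 immediate-early markers, which include Fos, Egr1 and Atf3, summed to 1005 to 1418 CPM in TLQP21, 1160 to 1427 in Saline 1 to 3 and 1902 in Saline 4. All markers of these 3 lists were expressed, and log2 fold changes lay below 0 for 12 of 12 acinar, 8 of 8 neutrophil and 8 of 10 immediate-early markers. Without Saline 4 these counts were 0 of 12, 8 of 8 and 3 of 10. With all libraries edgeR called 0, with 0, 5 and 0 at an unadjusted p under 0.05, where 2.26% of all genes were lower. Each neutrophil marker was highest in Saline 4, so the 5 are not independent. The neutrophil median was -0.94, and -0.45 without Saline 4. The part of these 3 lists in the chaperone levels was not tested.

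**Figure D4:**
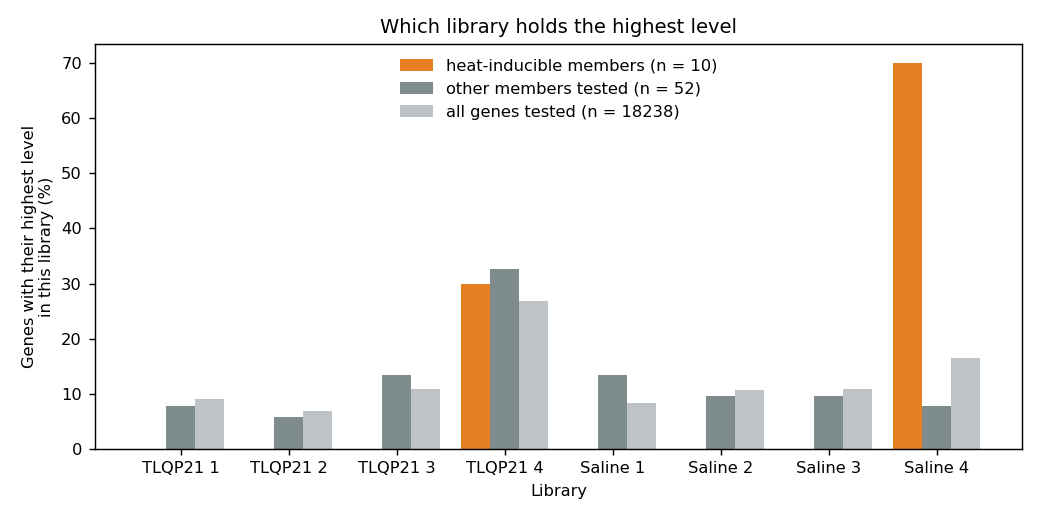
Share of genes (%, y axis) whose highest CPM falls in each of the 8 libraries (x axis), for the 10 heat-inducible members (orange), the 52 other tested members (dark grey) and all 18238 genes tested (light grey). Saline 4 holds the top for 7 of the 10 inducible members but 4 of the 52 others.

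**Figure D5:**
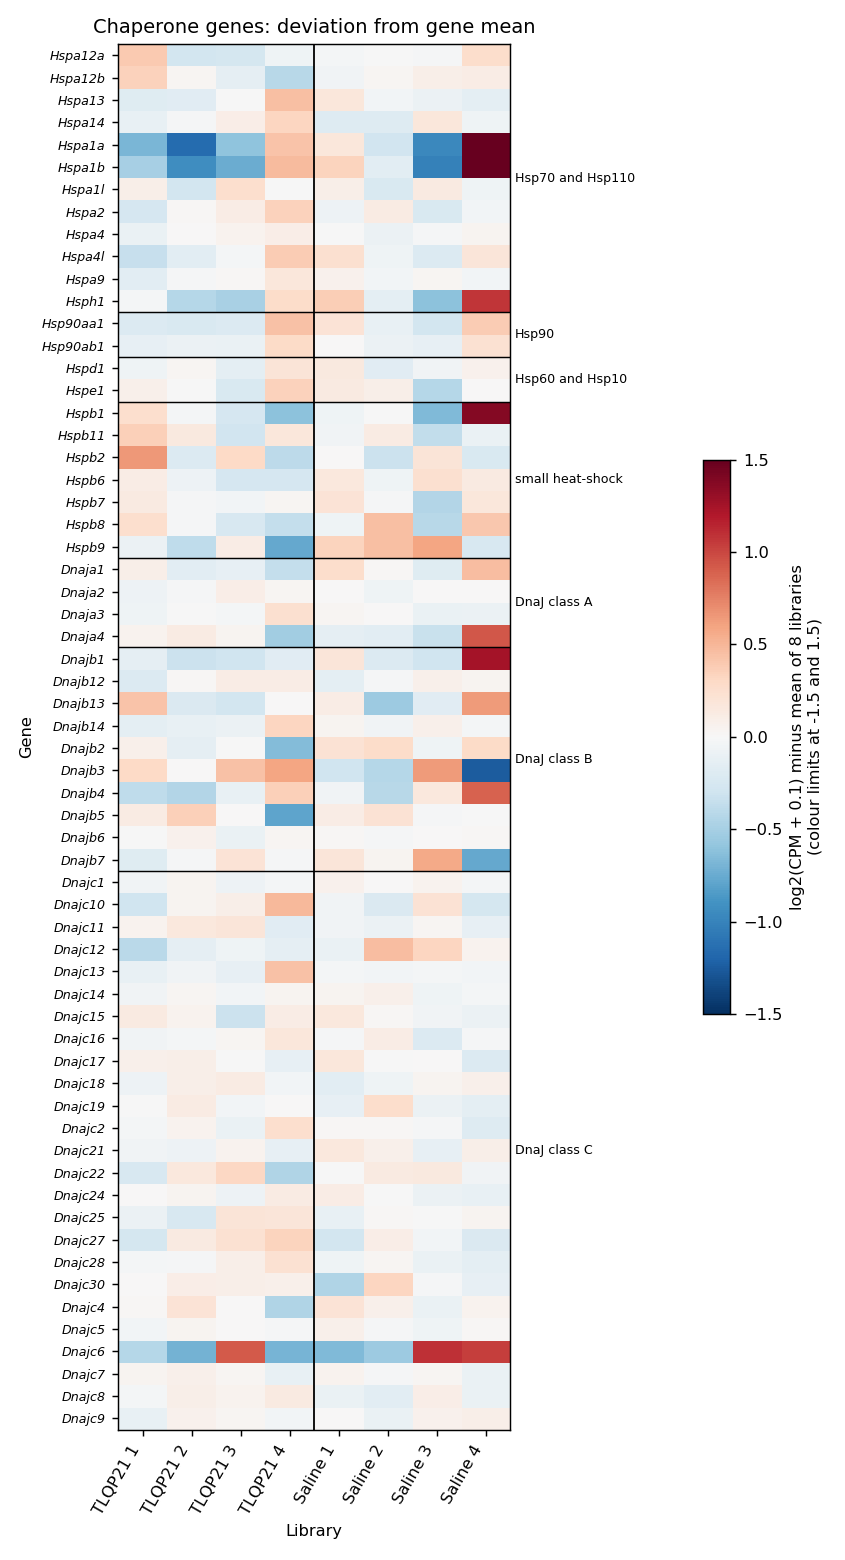
Log2(CPM + 0.1) of each tested chaperone gene minus its mean over the 8 libraries (colour, red above and blue below, limits at -1.5 and 1.5), with TLQP21 libraries left of the line and Saline libraries right of it, and genes in rows by class. The deep red cells of Hspa1a, Hspa1b, Hsph1, Hspb1 and Dnajb1 fall in Saline 4, and most class C rows are pale throughout. Dnajc6 of class C is an exception, red in TLQP21 3, Saline 3 and Saline 4.

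Among the other Hsp70 and Hsp110 members, differences between the groups were small. Hspa9, the mitochondrial Hsp70 and with Hspa1b among the 2 most abundant of the class per kilobase, had 306, 337, 347 and 384 CPM in TLQP21, against 357, 332, 349 and 332 CPM in Saline (log2 fold change 0.00, SE 0.09, 95% interval -0.20 to 0.21). Hspa4, a constitutive Hsp110, averaged 196 ± 11.6 CPM in TLQP21 and 191 ± 6.98 in Saline (0.04, SE 0.08). Hspa14, a ribosome-associated Hsp70, averaged 52.4 ± 7.07 and 47.3 ± 5.86 CPM in TLQP21 and Saline (0.15, SE 0.12). Hspa4l, Hspa13, Hspa2, Hspa12a, Hspa12b and Hspa1l had log2 fold changes from -0.09 to 0.12. Hspa1l, a testis Hsp70 next to Hspa1a, was at 0.777 to 1.16 CPM in TLQP21 and 0.805 to 1.06 in Saline, and 71.9% of its exon bases overlap the antisense gene Gm10501.

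Hsp90ab1 had 2196, 2243, 2235 and 2919 CPM in TLQP21, against 2393, 2238, 2194 and 2791 CPM in Saline. Library 4 was again the highest of both groups, and the means of 2398 ± 348 CPM in TLQP21 and 2404 ± 272 in Saline gave a log2 fold change of -0.00 (SE 0.13). The sign of a difference this small turned with other scalings.

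The remaining small heat-shock genes were low. Hspb8, a partner of the cochaperone Bag3 in autophagy, averaged 16.0 ± 3.08 CPM in TLQP21 and 18.5 ± 5.02 in Saline (-0.21, SE 0.21). Hspb6, a small heat-shock protein of smooth and heart muscle, had 6.77, 5.90, 5.25 and 5.22 CPM in TLQP21, against 7.01, 5.95, 7.38 and 6.88 CPM in Saline (-0.23, SE 0.16). Smooth muscle and myofibroblast markers summed to 209 to 265 CPM in TLQP21 and 169 to 235 in Saline, with Acta2 alone averaging 142 and 114. Of these 8 markers 7 lay above 0 and 1 below, with Des at 0.03 and Lmod1 at -0.04. Their part in the Hspb6 level was not tested. Hspb9, a testis gene, had 0.308, 0.230, 0.365 and 0.154 CPM in TLQP21, against 0.442, 0.490, 0.549 and 0.265 CPM in Saline (-0.73, SE 0.39), from 83 reads in all. Saline 1 to 3 lay above every TLQP21 library, and without Saline 4 the value was -0.91. Hspb7, Hspb11 and Hspb2 lay at 0.03, 0.21 and 0.25, and Hspb2 shares 30.2% of its exon bases with Cryab on the opposite strand.

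In DnaJ classes A and B, whose proteins carry the J domain at the amino end beside a glycine-rich stretch, no remaining member was called. Dnaja2 averaged 152 ± 7.50 CPM in TLQP21 and 149.5 ± 3.40 in Saline (0.02, SE 0.08), Dnaja3, the mitochondrial class A protein, 65.7 ± 6.62 and 62.1 ± 2.65 CPM in TLQP21 and Saline (0.08, SE 0.09). Dnaja4 had 4.65, 4.87, 4.62 and 3.09 CPM in TLQP21, against 4.05, 3.99, 3.53 and 8.59 CPM in Saline. Saline 4 was thus its highest library and TLQP21 4 its lowest. Its log2 fold change was -0.23 (SE 0.31), and 0.15 without Saline 4, and 44.1% of its exon bases overlap Wdr61 on the opposite strand.

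Dnajb2, a DnaJ protein with ubiquitin-interacting motifs, had 32.3, 27.8, 30.5 and 19.5 CPM in TLQP21, against 35.6, 36.9, 29.2 and 37.4 CPM in Saline. Only Saline 3 lay within the TLQP21 range, and the log2 fold change was -0.34 (SE 0.16, 95% interval -0.70 to 0.02), or -0.31 without Saline 4. Its lowest value was in TLQP21 4. Dnajb6, a suppressor of protein aggregation, was steady at 106 ± 5.12 CPM in TLQP21 and 107 ± 1.35 in Saline (-0.01, SE 0.07). Its promoter holds 3 adjoining heat-shock units, whose part in its level was not tested. Dnajb3 had 85 reads in all, with 0.429 ± 0.0884 CPM in TLQP21 and 0.268 ± 0.200 in Saline (0.66, SE 0.50).

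Class C holds the DnaJ proteins that share only the J domain, and in 18 of its 25 genes the highest library was under 1.5 times the lowest. Over all 62 members this held for 30, and the ratio exceeded 3 in 7. Dnajc10 had 859, 1095, 1125 and 1490 CPM in TLQP21, against 1026, 909, 1229 and 885 CPM in Saline (0.17, SE 0.17, 95% interval -0.22 to 0.56), with TLQP21 4 the highest. Dnajc8, a splicing-associated DnaJ protein, averaged 82.9 ± 4.15 CPM in TLQP21 and 76.0 ± 5.99 in Saline (0.12, SE 0.08). Dnajc27, a protein with a Rab-like GTPase domain, averaged 6.35 ± 1.10 and 5.41 ± 0.666 CPM in TLQP21 and Saline (0.23, SE 0.18).

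Dnajc12, a partner of the aromatic amino acid hydroxylases, had 2.98, 3.60, 3.79 and 3.61 CPM in TLQP21, against 3.71, 5.50, 5.01 and 4.12 CPM in Saline. Saline 1 alone lay within the TLQP21 range, and the log2 fold change was -0.39 (SE 0.19, 95% interval -0.82 to 0.04), or -0.45 without Saline 4. Dnajc6, an auxilin that strips clathrin from vesicles, was chosen after its values were seen. It had 0.582, 0.461, 1.63 and 0.463 CPM in TLQP21, against 0.477, 0.525, 1.85 and 1.78 CPM in Saline. Its high libraries were TLQP21 3, Saline 3 and Saline 4, which all had Y-linked reads, while TLQP21 4, the remaining library of that kind, was low.

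Each kind of library, Xist or Y-linked, held 2 TLQP21 and 2 Saline libraries, and the groups were also compared inside each kind. For Hspa1a the log2 ratio of means was -0.87 with Xist and -2.20 with Y-linked reads, the kind that holds Saline 4, and for Hspa1b -0.81 and -1.66. For Dnajb1 these values were -0.23 and -0.90, for Dnaja1 -0.18 and -0.42, and for Hspb1 0.15 and -1.12. They were -0.35 and -0.51 for Hsph1, and -0.19 and -0.43 for Dnajb4. Hsp90aa1 (-0.27 and 0.06), Hspe1 (-0.07 and 0.29) and Hspd1 (-0.01 and 0.03) went the other way. The value with Y-linked reads was the lower for 7 of 10 inducible members and for 28 of all 62. With Xist reads, where Saline 4 plays no part, 9 of 10 inducible members and 40 of all 62 lay below 0. With Y-linked reads 7 of 10 and 27 of 62 did. A test of the difference between the kinds (edgeR interaction term) called 0 of 62 members and 0 of all genes, with 1 member, Hspa13 (-0.25 with Xist and 0.36 with Y-linked reads), at an unadjusted p under 0.05, beside 4.80% of all genes.

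The other genes of the chaperone system were read beside the members. The list held 47 genes: HSF1 and HSF2, nucleotide exchange factors, Hsp90 cochaperones, chaperonin subunits, endoplasmic reticulum chaperones and the genes left out by rule, and all but Cct6a, which was not found under that name, were tested. Of 46, 23 lay above 0 and 23 below, the median was -0.00, and 0 were called by edgeR. Hsf1 had 53.0, 49.0, 57.7 and 45.0 CPM in TLQP21, against 49.7, 48.7, 49.5 and 49.4 CPM in Saline (0.05, SE 0.09). Saline 4 thus did not stand out in Hsf1 mRNA, and the activity of the HSF1 protein was not measured. Bag3, an Hsp70 exchange factor, had 52.3, 49.3, 52.3 and 36.9 CPM in TLQP21, against 50.6, 45.0, 55.2 and 84.5 CPM in Saline (-0.30, SE 0.20), and -0.08 without Saline 4. Fkbp5, an Hsp90 cochaperone, averaged 67.8 ± 9.81 CPM in TLQP21 and 80.3 ± 16.1 in Saline (-0.24, SE 0.15), and -0.11 without Saline 4. Dnajb11, an endoplasmic reticulum DnaJ protein, averaged 88.6 ± 7.15 and 101 ± 10.6 CPM in TLQP21 and Saline (-0.19, SE 0.10), and Cct5, a subunit of the cytosolic chaperonin, 350.3 ± 40.5 and 312 ± 15.6 CPM (0.17, SE 0.10). Bag3, Fkbp5 and Dnajb11 were highest in Saline 4, which held the highest level of 9 of the 46 genes, while TLQP21 4 held that of 22.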

How the data were processed

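Gene-level read counts of 8 tumour libraries were analysed, 4 TLQP21 and 4 Saline, grouped by their titles. The deposited table holds whole-number counts per gene, not normalised. NEBNext Ultra libraries of total RNA were read as 150 bp paired ends on a NovaSeq, per the labels. By the account of the submitters' processing notes, the tools included HISAT2 2.0.5 as well as featureCounts at version 1.5.0-p3, with DESeq2 at 1.32.0, and the build was GRCm38 (mm10). The strand setting, annotation release and treatment of multimapping reads are not given in the sources used here. The deposited gene lengths, given in bases by the authors, served for levels per kilobase.

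The main test was that of edgeR 4.0.16, run in R 4.3.3 (default filter on low counts by group, TMM scaling, quasi-likelihood test of TLQP21 against Saline, no covariate), with Benjamini-Hochberg adjustment over all genes tested and a threshold of 0.05. Levels are TMM-scaled CPM, and intervals are 95% from the t distribution of that fit. DESeq2 1.42.0 and limma 3.58.1 were run as other tools. Members and lists were chosen with earlier results of these data known. Text names the 10 inducible members, per class the 3 smallest p and the most abundant per kilobase, members whose groups do not overlap, the 3 with most of their level in 1 library and those untested, and of the cochaperones Hsf1 and the 4 smallest p; other members were named after their values were seen. Exon overlaps and shared windows came from GENCODE M21 (GRCm38), in which 61 of 64 members had the same start and end. Nothing in the labels states that each library is a separate animal, and p-values then cover only the spread among these libraries, which may be technical. No libraries were duplicates (lowest chi-square per degree of freedom between any pair 19.0). Alternatives were other scalings, filters and tools, protein-coding genes only, a replicate block, the Xist and Y-linked split as a term, and each library left out. The test of the interaction with that split was added after seeing the data.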

Additional observations from a re-analysis of the deposited data

Results flagged for a closer look

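Within groups of 4 libraries, each of the 23 named and tested members was examined for 1 library far from the other 3, by the gap to the nearest library over the range of the group. Of 46 groups 7 were flagged. Chance flags about 1 in 20 groups when genes are not chosen by their values. Some of these genes were named for a small p or a high share in 1 library, so that rate does not apply here. Members that share a library are not independent.

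Saline 4 was far above the other Saline libraries in 3 genes. Hspa1a stood at 285.34 CPM there, against 16.9 to 37.0 CPM in Saline 1 to 3, and Hspa1b at 689.33 CPM, against 58.6 to 149.8 CPM. Dnaja4 stood at 8.5859 CPM in Saline 4, against 3.53 to 4.05 CPM in Saline 1 to 3.

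TLQP21 4 lay apart from the other TLQP21 libraries in 3 genes. Hsp90aa1 had 788.39 CPM there, against 497 to 507 CPM in TLQP21 1 to 3, and Hsp90ab1 had 2919.3 CPM, against 2196.5 to 2243 CPM. Dnaja4 was low in TLQP21 4, with 3.0882 CPM against 4.62 to 4.87 CPM.

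Dnaja2 was low in Saline 2, with 144.41 CPM against 150.85 to 151.55 CPM in the other Saline libraries, a small difference in a gene that varied little.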

How the results depend on the processing

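No chaperone gene was called under the alternatives run, each over the members it tested; DESeq2 gave no p for Hspa1a. The 23 named and tested members gave 411 log2 fold changes over 18 alternatives, and 388 kept the direction of the reported value. In all, 8 genes turned direction at least once, and the cause was not tested. The median of all genes moved between -0.008 and 0.026 over the alternatives.

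Genes called numbered 4 with DESeq2 and 1 with limma voom. Members lower at an unadjusted p under 0.05 numbered 0 as reported, 1 with library totals (1.92% of all genes), 4 without a filter (2.71%), 2 with DESeq2 (2.43%) and 4 with voom (6.62%). With voom 2 members were higher (3.98%). With 1 library left out 0 to 6 were lower (1.37 to 4.07% of all genes) and 0 to 1 higher (0.508 to 1.52%). The 6 were without Saline 3 (2.95%), and without Saline 4 there was 1, Hspb9 (2.10%). With upper-quartile factors 1 member, Dnajc12, lay wholly lower in TLQP21, as did 0.691% of all genes. A promoter with 3 heat-shock units was found for 4 members, against 15 with 2 units.

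With upper-quartile factors, library totals and protein-coding genes only, Hsp90ab1 turned to 0.010, 0.023 and 0.000. With voom, Dnaja4 turned to 0.132, Hspa9 to -0.036, Hspd1 to -0.001 and Hspe1 to -0.043.

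With each library left out in turn, class medians ranged from -0.166 to 0.041 for DnaJ class A, -0.085 to -0.025 for class B, -0.011 to 0.044 for class C and -0.319 to 0.080 for small heat-shock genes; the values 0.041, -0.025, -0.011 and 0.080 are those without Saline 4. Single genes ranged from -0.005 to 0.050 for Dnaja2, -0.362 to 0.152 for Dnaja4, -0.286 to 0.025 for Hsp90aa1 and -0.116 to 0.071 for Hsp90ab1. Hspa9 ranged from -0.057 to 0.056, Hspb1 from -0.734 to 0.080, Hspd1 from -0.061 to 0.063 and Hspe1 from -0.011 to 0.186.

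Same-numbered libraries of the groups share the number and the Xist or Y-linked kind. The labels name no other link, and the correlations of their deviations from the group means were 0.115, 0.194, 0.271 and -0.053 for numbers 1 to 4, not all over 0.1. Of 8 libraries, 1 correlated best with its own number in the other group. With the replicate number as a block, 2 members, Dnajb4 and Hspa1b, were lower at an unadjusted p under 0.05 (2.37% of all genes), and the median of DnaJ class B was -0.022. The block gave -1.02 for Hspa1a, -0.85 for Hspa1b, -0.29 for Hspb1 and -0.14 for Dnaja4, against -1.86, -1.39, -0.51 and -0.23 as reported.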
